A study of Mus musculus with 24 samples.

Results

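The genes described here are 60 genes named for motile cilia, which in the brain are best known from the ependyma, the ciliated epithelium of the ventricles. They were taken by name from a table of 47593 genes. The names begin with Dnah, Dnaaf, Cfap, Rsph or Tekt followed by a digit, and Foxj1, Ccdc153, Tmem212, Pifo and Tctex1d4 were added singly. Of the 63 rows that matched, 60 had at least 10 counts in at least 6 of the 24 libraries and were kept. They comprise 15 Dnah, 4 Dnaaf, 25 Cfap, 7 Rsph and 4 Tekt genes and the 5 named singly. Tekt3, Rsph6a and the antisense gene Dnah2os did not reach this level and are named without a value. The rule uses names and a count minimum, and was set with earlier results of these data known. The name need not hold for every gene as a sign of ependyma. Cfap36, Cfap20 and Cfap97 had slopes near 0 on the axonemal and the choroid plexus genes described below, and Tekt5 ran against the axonemal genes. In all, 24 of the 60 had neither slope called, which does not show that they followed neither. Dnah9 among them had an axonemal slope of 0.68 ± 0.215 (SE, adjusted p = 0.0806, quasi-likelihood test).

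Hippocampal RNA of 24 male C57BL/6J mice, 8 to 12 weeks old, was sequenced as 1 library per mouse in 8 groups of 3. Wild-type (WT) and Tob-KO mice were sampled without training (naive) or 15 min, 1 h or 3 h after training in fear conditioning. In the training described, a tone was paired with each foot shock in a chamber. The mouse learns to associate the chamber (contextual fear) and the tone with the shocks. Naive mice were not conditioned, so no group received the chamber or the tone without the shock. The Tob-KO line, made in earlier work, is a knockout of the gene for TOB, an antiproliferative protein that recruits the mRNA deadenylation machinery, and is not described as limited to any cell type. The targeted gene Tob1 ran against its label, with 33.7 to 44.4 CPM (the read count of a gene relative to the normalised size of its library) in the 12 WT libraries and 52 to 68.6 CPM in the 12 libraries labelled Tob-KO. The count gives 1 value for the whole gene and does not show which exon the reads came from.

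Motile cilia are hair-like organelles built on an axoneme of microtubule doublets around a central pair. Dynein arms on the doublets make them bend, radial spokes and the central pair time the bending, and tektins and other inner proteins stiffen the doublet wall. Ependymal cells each carry a tuft of motile cilia that moves cerebrospinal fluid. The transcription factors Foxj1 and those of the RFX family switch on axonemal genes when such cells mature. The choroid plexus epithelium, which secretes cerebrospinal fluid and is continuous with the ependyma, is also ciliated and also expresses Foxj1. Neurons and astrocytes carry a single primary cilium, which shares its transport machinery but not its dynein arms.

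Total counts ran from 28847989 to 41595972 per library, with a median of 31169386.5. The libraries stood apart in 1 tissue marker list. A score over 18 genes of the choroid plexus epithelium, the mean of their log2 CPM after subtracting each gene's mean, was -2.95 to -2.01 in 10 libraries and 0.24 to 2.83 in the other 14. Their summed level was 48.75 to 98.58 CPM below this gap and 763 to 5269 CPM above it. The libraries below the gap comprised 6 WT and 4 labelled Tob-KO, and all 3 WT libraries of 15 min were among them. The direction of these markers is given beside the differences between groups. In bulk tissue, fewer cells of a type and less RNA per cell cannot be told apart.

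The 60 genes together made up 347.2 to 546 CPM per library. Levels of different genes are compared here per kilobase of annotated exon. Cfap36, a binding partner of the small GTPase Arl3 that is used in many cell types, stood at 29.3 CPM per kilobase. It was followed by Cfap97 (7.4), the radial spoke head gene Rsph9 (6.51), Foxj1 (6.13) and Cfap20 (5.74), whose product lies at the inner junction of the doublet. The lowest was Dnah17, an outer arm dynein gene best known from sperm, at 0.0177 CPM per kilobase, and the median gene stood at 0.744. Among the markers used for ependyma, Tmem212 had 3.28 and Ccdc153 had 2.94 CPM per kilobase.

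**Figure D1:**
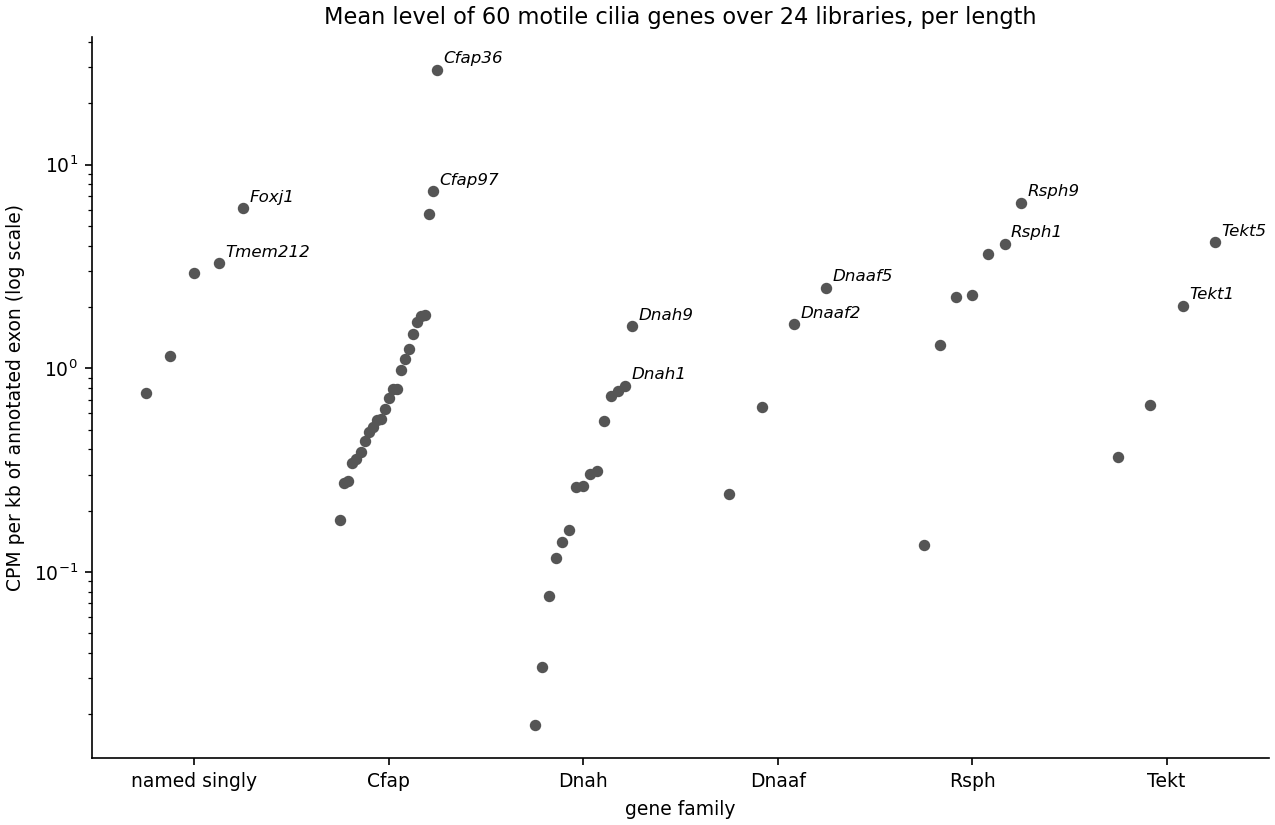
Mean level of each of the 60 genes in CPM per kilobase of annotated exon (vertical logarithmic axis), 1 point per gene averaged over the 24 libraries, by family (horizontal axis) and in rising order within it. Cfap36 lies at the top with 29.3, and the long dynein heavy chains Dnah17, Dnah8, Dnah14 and Dnah7c hold the 4 lowest places.

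The dynein heavy chains are the motors. Dnah9, Dnah5, Dnah11, Dnah8 and Dnah17 encode outer arm chains and most of the others inner arm chains. On the scale of CPM, Dnah9 had 19.02 to 38.99 with a median of 26.19 over the 24 mice, and Dnah5 had 8.637 to 15.88 with a median of 11.78. Dnah11 varied more, from 1.59 to 8.608 CPM, and Dnah17 had no more than 18 counts in any library. Dnah10 and Dnah12, inner arm chains, ranged from 1.372 to 8.335 CPM and from 1.497 to 5.129 CPM. Dnah7a, Dnah7b and Dnah7c are near-identical copies whose counts may be split between them, so their separate values are uncertain. The same holds for Rsph3a and Rsph3b.

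The other families showed the same split between steady and variable genes. The assembly factors Dnaaf2 and Dnaaf5, which fold dynein arms in the cytoplasm before export, ran from 4.522 to 6.506 CPM and from 7.362 to 10.84 CPM, whereas Dnaaf3 ran from 0.5841 to 2.639 CPM and Dnaaf1 from 0.2183 to 1.193 CPM. In the radial spokes, Rsph9 ran from 8.023 to 12.82 CPM and Rsph3a from 9.479 to 11.85 CPM, whereas the head genes Rsph1 and Rsph4a ran from 1.84 to 9.645 CPM and from 3.622 to 14.01 CPM. Of the tektins, Tekt5 ran from 4.398 to 10.07 CPM and Tekt1 from 1.46 to 6.911 CPM, while Tekt4 and Tekt2 had at most 81 and 34 counts in a library.

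Over the 24 libraries the SD of log2 CPM was 0.41 in the median gene. It was smallest for Cfap36 and Cfap20 (both 0.06), Cfap97 (0.07), Rsph3a (0.08) and Rsph3b (0.13). It was largest for Pifo (0.94), Cfap53 (0.79), Cfap157 and Dnah6 (both 0.66) and Cfap73 (0.65). Low counts widen this SD by themselves, and the genes differ in depth. Cfap36 and Cfap20 had means of 80.36 and 25.54 CPM, whereas Pifo had 0.204 to 2.95 CPM. The part of depth in this ranking was not tested. In all, 9 genes had an SD under 0.2 and 20 had one over 0.5. The highest library exceeded the lowest by 3.39-fold in the median gene. The median SD was 0.22 in the Rsph family and 0.53 among the 5 genes named singly, with the Dnah family (0.32), Dnaaf family (0.33), Cfap family (0.38) and Tekt family (0.43) between.

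The spread was not even over mice. WT 3 h replicate 3 held the lowest value of 30 of the 60 genes, and Tob-KO naive replicate 2 held the highest value of 27. In Tob-KO naive replicate 2 and in WT 1 h replicate 1, 54 genes each stood above their own mean, against 7 in WT 15 min replicate 1. Tob-KO naive replicate 2 and WT 1 h replicate 1 lie above the gap of the choroid plexus score, and WT 3 h replicate 3 and WT 15 min replicate 1 lie below it.

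**Figure D2:**
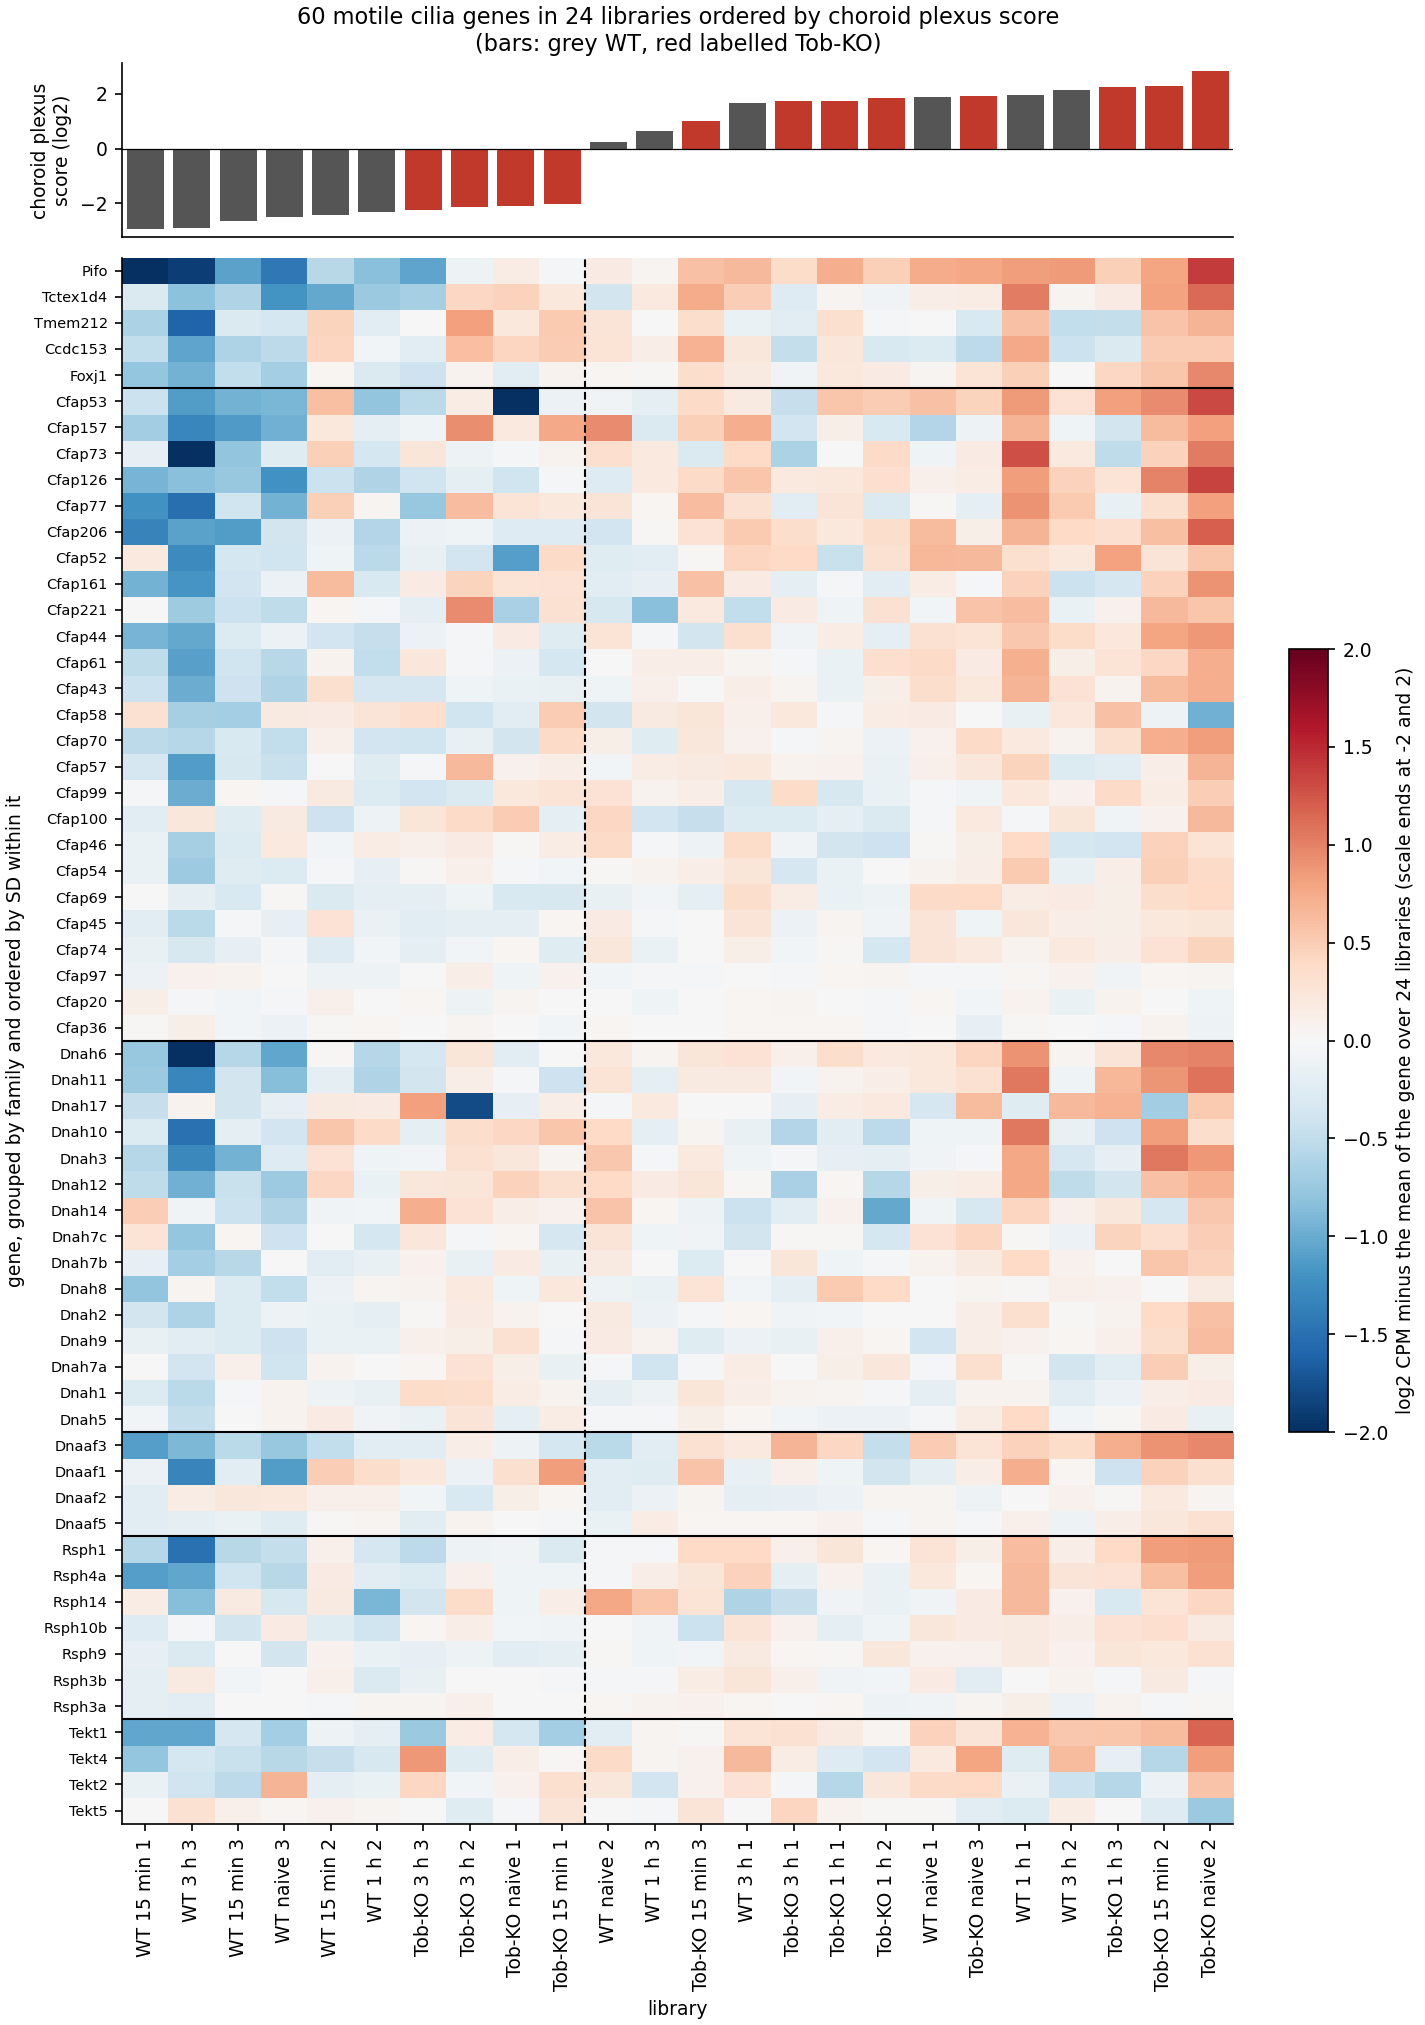
Deviation of each gene from its own mean log2 CPM (colour) in the 24 libraries (columns), which are ordered by the choroid plexus score, with genes (rows) grouped by family and ordered by SD within it, and the score itself as bars on top. Many rows turn from low on the left to high on the right, while Cfap36, Cfap20 and Cfap97 stay near 0 throughout, and WT 3 h replicate 3 and Tob-KO naive replicate 2 stand out as whole columns.

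Foxj1 (ENSMUSG00000034227.7), the master transcription factor of motile cilia, is annotated on chromosome 11 of GRCm38, from 116330704 to 116335399 on the reverse strand, with no overlapping gene. Naive WT mice had 16.0, 15.9 and 9.57 CPM, and naive mice labelled Tob-KO had 13.2, 29.9 and 18.7 CPM. At 15 min the WT mice had 9.0, 15.8 and 11.0 CPM and the mice labelled Tob-KO 16.2, 22.6 and 19.6 CPM. The 3 values of each genotype did not overlap at 15 min and overlapped in naive mice. At 1 h the values were 21.5, 12.6 and 15.6 CPM in WT against 17.9, 17.3 and 20.6 CPM, and at 3 h 17.4, 15.4 and 7.95 CPM against 14.7, 16.1 and 11.5 CPM. The highest level, 29.9 CPM in Tob-KO naive replicate 2, was thus reached without conditioning.

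Ccdc153 and Tmem212 are used as markers of ependymal cells in mouse brain. Ccdc153 (ENSMUSG00000070306.3, chromosome 9, 44240676 to 44247306, forward strand) had 2.682 to 9.618 CPM with a median of 5.825 over the 24 libraries. Its values at 15 min were 4.0, 7.65 and 3.65 CPM in WT and 8.05, 8.03 and 9.16 CPM in the mice labelled Tob-KO, without overlap. Tmem212 (ENSMUSG00000043164.3, chromosome 3, 27866066 to 27896368, reverse strand) had 0.686 to 3.936 CPM with a median of 2.204. It overlaps Gm26040 on the other strand. At 15 min its groups of 1.4, 3.02 and 1.79 CPM in WT and 3.21, 3.3 and 2.85 CPM in the mice labelled Tob-KO overlapped.

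The stretch before the start of 4 of these genes shows where the letters of the RFX site lie, and is printed because RFX factors control axonemal genes. Each stretch runs from 160 to 6 bases before the annotated start (RefSeq, GRCm38.p6), 5′ to 3′ on the strand of the gene, with every GTTGCC or its reverse complement GGCAAC in capitals. The 4 were chosen after their values were seen. Where a gene had several annotated starts, the start with the most of these letters in its window was used. Ccdc153 and Dnah10 are 2 genes of the set whose level followed other axonemal genes rather than choroid plexus markers (given with the slopes), and Tekt2 fell after conditioning. Tekt1 rose with the choroid plexus markers when these were fitted alone. When both were fitted at once, only its slope on the axonemal genes was called.
Ccdc153, chr9:44240517-44240671, forward strand: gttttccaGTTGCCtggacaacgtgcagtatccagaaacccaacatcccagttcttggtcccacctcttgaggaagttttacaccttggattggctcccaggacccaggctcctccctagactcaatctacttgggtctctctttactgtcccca
Dnah10, chr5:124724925-124725079, forward strand: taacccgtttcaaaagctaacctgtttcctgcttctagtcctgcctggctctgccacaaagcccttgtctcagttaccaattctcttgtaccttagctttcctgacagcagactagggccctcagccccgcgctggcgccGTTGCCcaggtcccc
Tekt1, chr11:72361888-72362042, reverse strand: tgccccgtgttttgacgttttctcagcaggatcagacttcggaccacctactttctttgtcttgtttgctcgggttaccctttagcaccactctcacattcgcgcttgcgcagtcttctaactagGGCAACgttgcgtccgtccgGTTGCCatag
Tekt2, chr4:126325694-126325848, reverse strand: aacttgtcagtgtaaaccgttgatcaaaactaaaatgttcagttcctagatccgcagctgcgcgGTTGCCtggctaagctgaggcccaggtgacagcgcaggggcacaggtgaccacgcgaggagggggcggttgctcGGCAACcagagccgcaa
The letters begin 152 bases before the start of Ccdc153 and 20 before that of Dnah10, 35 and 15 before that of Tekt1, and 96 and 22 before that of Tekt2. A further start of Tekt1 and a further start of Tekt2 had none of them from 250 bases before to 50 after. Counted from another start of Tekt2, the first letters lie 138 bases before it. The Tekt1 stretch lies within the annotated extent of the gene outside its exons, and the Dnah10 stretch overlaps an exon of a noncoding antisense gene.

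Of the 60 genes, 49 had a promoter entry of 250 bases before to 50 bases after the start, and 19 of these (38.8%) held GTTGCC or GGCAAC. The share over all 26742 genes with an entry was 14.0%. Among the genes whose level followed the choroid plexus score the letters occurred in 4 of 17 (23.5%), and among the others in 15 of 32 (46.9%). The letters GTAAACA or TGTTTAC, bound by many forkhead factors, occurred in 3 of 49 (6.12%), against 4.06% of all genes. These shares are descriptions of windows, and no binding was measured. Foxj1 and Rsph1 are named without a promoter.

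The level of 21 of the 60 genes rose with the choroid plexus score and that of none fell, in a fit of all 24 libraries that allows for genotype and time (edgeR quasi-likelihood test, false discovery rate at most 0.05 over all genes). Over all 19500 genes tested, 4.5% had a positive slope called by this test. A slope is the change of log2 CPM per unit of the score. The steepest was that of Pifo, a protein found at the base of cilia, at 0.36 ± 0.04 (SE, adjusted p = 1.67e-06). Cfap126, a doublet protein also called Flattop, had the smallest p, with a slope of 0.28 ± 0.03 (SE, adjusted p = 1.63e-06). The slopes of Foxj1 (0.15 ± 0.02, SE) and Tctex1d4 (0.20 ± 0.05, SE) were called too, with adjusted p of 0.000102 and 0.0309. Those of Ccdc153 (0.04 ± 0.05, SE) and Tmem212 (0.03 ± 0.05, SE) were not, with adjusted p of 0.849 and 0.895.

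By role, the genes called comprised 2 of 15 dynein heavy chains (Dnah6 and Dnah11), 1 of 4 assembly factors (Dnaaf3), 3 of 7 Rsph genes (Rsph1, Rsph4a and Rsph9) and 1 of 4 tektins (Tekt1). Of the Cfap genes 11 of 25 were called, among them Cfap43 and Cfap44, which tether inner dynein arms, and Cfap45, Cfap52 and Cfap53, which lie inside the doublet. The genes with the steadiest levels had slopes near 0, as 0.00072 ± 0.0066 (SE) for Cfap36. The slope did not rest on 1 library, since leaving out each in turn left 20 to 23 genes called. Within the 10 libraries below the gap no slope was called, and within the 14 above it 8 were, so most of the calls were not made within either set alone. The shares over all genes within each set are not given here.

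Set by set, Pifo had 0.204 to 1.21 CPM (median 0.536) in the 10 libraries below the gap and 1.13 to 2.95 CPM (median 1.785) in the 14 above it. Cfap126 had 0.825 to 1.96 CPM below and 1.67 to 5.22 CPM above. Foxj1 had medians of 12.05 and 17.65 CPM with overlap, from 7.95 to 16.2 CPM and from 14.7 to 29.9 CPM. Ccdc153 overlapped over most of its range, with medians of 5.13 and 6.415 CPM, and Dnah10 had the higher median below the gap, 4.28 against 3.655 CPM.

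Because choroid plexus and axonemal genes moved partly together, a second fit, added after the data were seen, held 2 scores at once: that of the choroid plexus and that of 38 other axonemal and motile cilia genes that share no member with the 60. Beside the axonemal score, 3 of the 60 genes had a positive choroid plexus slope, namely Pifo (0.22 ± 0.05, SE, adjusted p = 0.0156), Cfap126 (0.13 ± 0.03, SE, adjusted p = 0.0233) and Cfap69 (0.093 ± 0.024, SE, adjusted p = 0.0284), a central pair gene. The positive share over all genes was 2.53%. The slope was negative for 5 genes, against 0.364% of all genes. These were Dnah10 (-0.22 ± 0.04, SE, adjusted p = 0.000269), Dnah12 (-0.18), Ccdc153 (-0.18 ± 0.04, SE, adjusted p = 0.00519), Tmem212 (-0.19) and the doublet gene Cfap161 (-0.15). Of these 8 calls only 2 were left without Tob-KO 3 h replicate 2, 4 without Tob-KO 3 h replicate 3 and 5 without WT 3 h replicate 2.

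On the axonemal score itself 27 of the 60 genes had a positive slope and 1 a negative one, against 1.51% and 2.06% of all genes. A unit of this score is a doubling of the mean axonemal gene. Foxj1 had a slope of 1.30 ± 0.14 (SE, adjusted p = 8.84e-06), Ccdc153 had 2.51, Dnah10 had 2.77 ± 0.29 (SE, adjusted p = 7.86e-06) and Cfap157 had 3.22. The negative slope was that of Tekt5 (-0.85 ± 0.24, SE, adjusted p = 0.0441), a tektin best known from sperm tails. Leaving out 1 library at a time left 21 to 29 genes called in all, against 28. Markers of other tissues moved with this score as well. All 9 genes of meninges and fibroblasts had a negative slope (median -0.97, 6 with an unadjusted p under 0.05, Col1a2 called), and 8 of 9 genes of hippocampal neurons a positive one (median 0.58, 6 with an unadjusted p under 0.05, Grik4 called). Their part in the slopes of the cilia genes was not tested.

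Between both fits the 60 genes fell into descriptive classes. In 13, Foxj1, Pifo, Cfap126, Tekt1 and Rsph1 among them, the choroid plexus slope of the first fit and the axonemal slope of the second were both called. In 8, such as Rsph9, Cfap69 and Dnaaf3, the choroid plexus slope of the first fit alone was called. Beside the axonemal score that slope stayed called only in Cfap69 of these 8, and only in Pifo and Cfap126 of the 13. In 14, including Dnah10, Dnah12, Ccdc153 and Tmem212, the axonemal slope alone was called and was positive. In 24 neither was called, and these held Cfap36, Cfap20, Cfap97, Dnaaf2, Dnaaf5, Dnah5 and Dnah9. A slope that was not called is not shown to be absent.

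**Figure D3:**
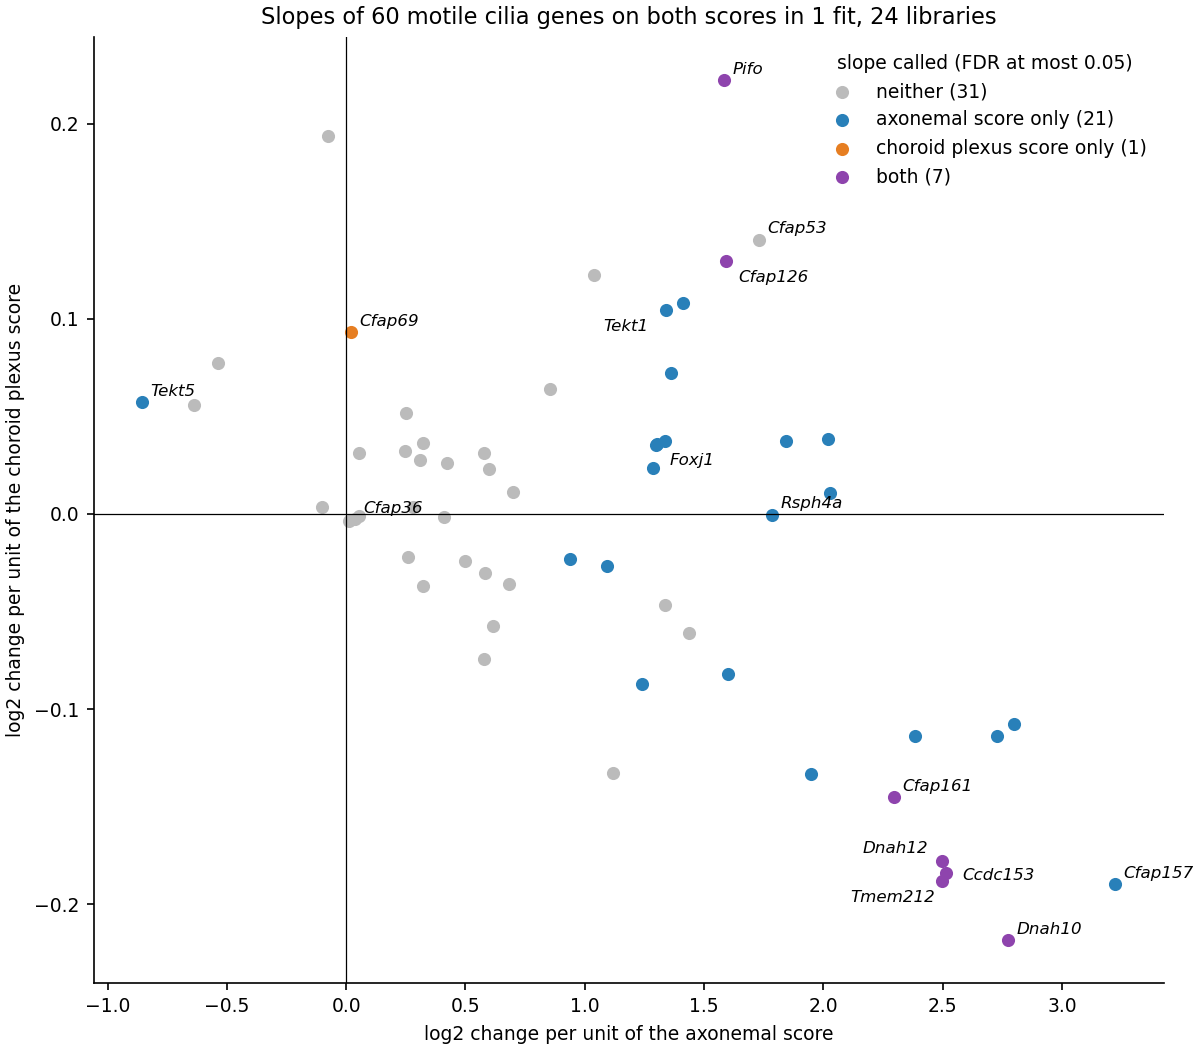
Slope of each of the 60 genes on the axonemal score (horizontal axis) and on the choroid plexus score (vertical axis) in the fit that holds both, in log2 CPM per unit of score, 1 point per gene coloured by which slope was called. Pifo, Cfap126 and Cfap69 lie above 0 on the vertical axis, whereas Dnah10, Dnah12, Ccdc153, Tmem212 and Cfap161 lie at the lower right, and Tekt5 lies farthest left.

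Whether Tob-KO differed from WT was asked at each time, with edgeR's exact test over 3 against 3 libraries, a false discovery rate limit of 0.05 and a lower limit of 2 on the fold change. At 15 min 3 of the 60 genes were called, all higher in the libraries labelled Tob-KO, against 0.555% of all genes tested. They were Pifo, Cfap126 and Tctex1d4. The direction was shared more widely than the calls, since 57 of the 60 genes had their higher mean on the side labelled Tob-KO, at a median log2 difference of 0.376 against -0.0058 over all genes. An unadjusted p under 0.05 was reached by 19 genes, against 8.05% of all genes.

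Pifo (ENSMUSG00000010136.14) lies on the reverse strand of chromosome 3, from 105996957 to 106014646. Pifo overlaps Gm42722 on the other strand and Gm42721 on the same strand. At 15 min it had 0.204, 0.72 and 0.481 CPM in WT and 1.06, 1.92 and 1.65 CPM in the mice labelled Tob-KO, without overlap. The log2 difference was 1.74 ± 0.40 (SE, adjusted p = 0.0132, exact test). In naive mice its values of 1.85, 1.22 and 0.363 CPM in WT reached above the lowest of 1.21, 2.95 and 1.89 CPM, and at 3 h they were 1.74, 2.01 and 0.249 CPM against 1.42, 1.01 and 0.49 CPM. The WT mice of 15 min were thus low beside 6 of the other 9 WT mice, each of which exceeded 1 CPM.

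Cfap126 (ENSMUSG00000026649.14) lies on the forward strand of chromosome 1, from 171113918 to 171126967, with no overlapping gene. At 15 min it had 1.02, 1.48 and 1.15 CPM in WT and 1.96, 4.03 and 2.61 CPM in the mice labelled Tob-KO, a log2 difference of 1.24 ± 0.29 (SE, adjusted p = 0.0229, exact test). Naive WT mice had 2.16, 1.67 and 0.825 CPM and naive mice labelled Tob-KO 1.5, 5.22 and 2.21 CPM. At 1 h the highest value of both genotypes, 3.63 CPM, was that of a WT mouse.

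Tctex1d4 (ENSMUSG00000047671.8), a light chain of the Tctex family of dyneins, lies on the forward strand of chromosome 4, from 117126794 to 117128738, and overlaps Plk3 on the other strand. The strand setting of the counting is not stated, so reads of Plk3 may enter its count. Tctex1d4 rested on only 9 to 56 counts per library. At 15 min it had 0.613, 0.343 and 0.481 CPM in WT and 0.895, 1.38 and 1.32 CPM in the mice labelled Tob-KO, a log2 difference of 1.32 ± 0.30 (SE, adjusted p = 0.0247, exact test). It was also the gene with the largest difference in naive mice, where 0.842, 0.579 and 0.297 CPM in WT stood against 1.08, 1.76 and 0.856 CPM, a log2 difference of 1.09 that was not called.

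Foxj1 (log2 difference 0.71 ± 0.20, SE) and Ccdc153 (0.73) missed the call at 15 min, with adjusted p of 0.0779 and 0.263 in the exact test, and Tmem212 had a log2 difference of 0.60 (adjusted p = 0.571). The 3 calls were not made by edgeR's quasi-likelihood test, in which the adjusted p was 0.448 for each. Over the 12 alternatives run for each gene their adjusted p ran from 0.000271 to 0.448 for Pifo, from 0.000171 to 0.448 for Cfap126 and from 0.00147 to 0.448 for Tctex1d4. None was left when WT 15 min replicate 3, Tob-KO 15 min replicate 2 or Tob-KO 15 min replicate 3 was left out, and 1 was left without WT 15 min replicate 1. Without WT 15 min replicate 2 the count was 8 and without Tob-KO 15 min replicate 1 it was 7. The shares over all genes in these refits are not given here, so the higher counts are not read as a stronger result. Of the 18 choroid plexus markers 17 were called higher in the same comparison, and all 3 WT libraries lay below the gap of their score while 2 of the 3 labelled Tob-KO lay above it. The part of these markers in the difference of the cilia genes was not tested.

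**Figure D4:**
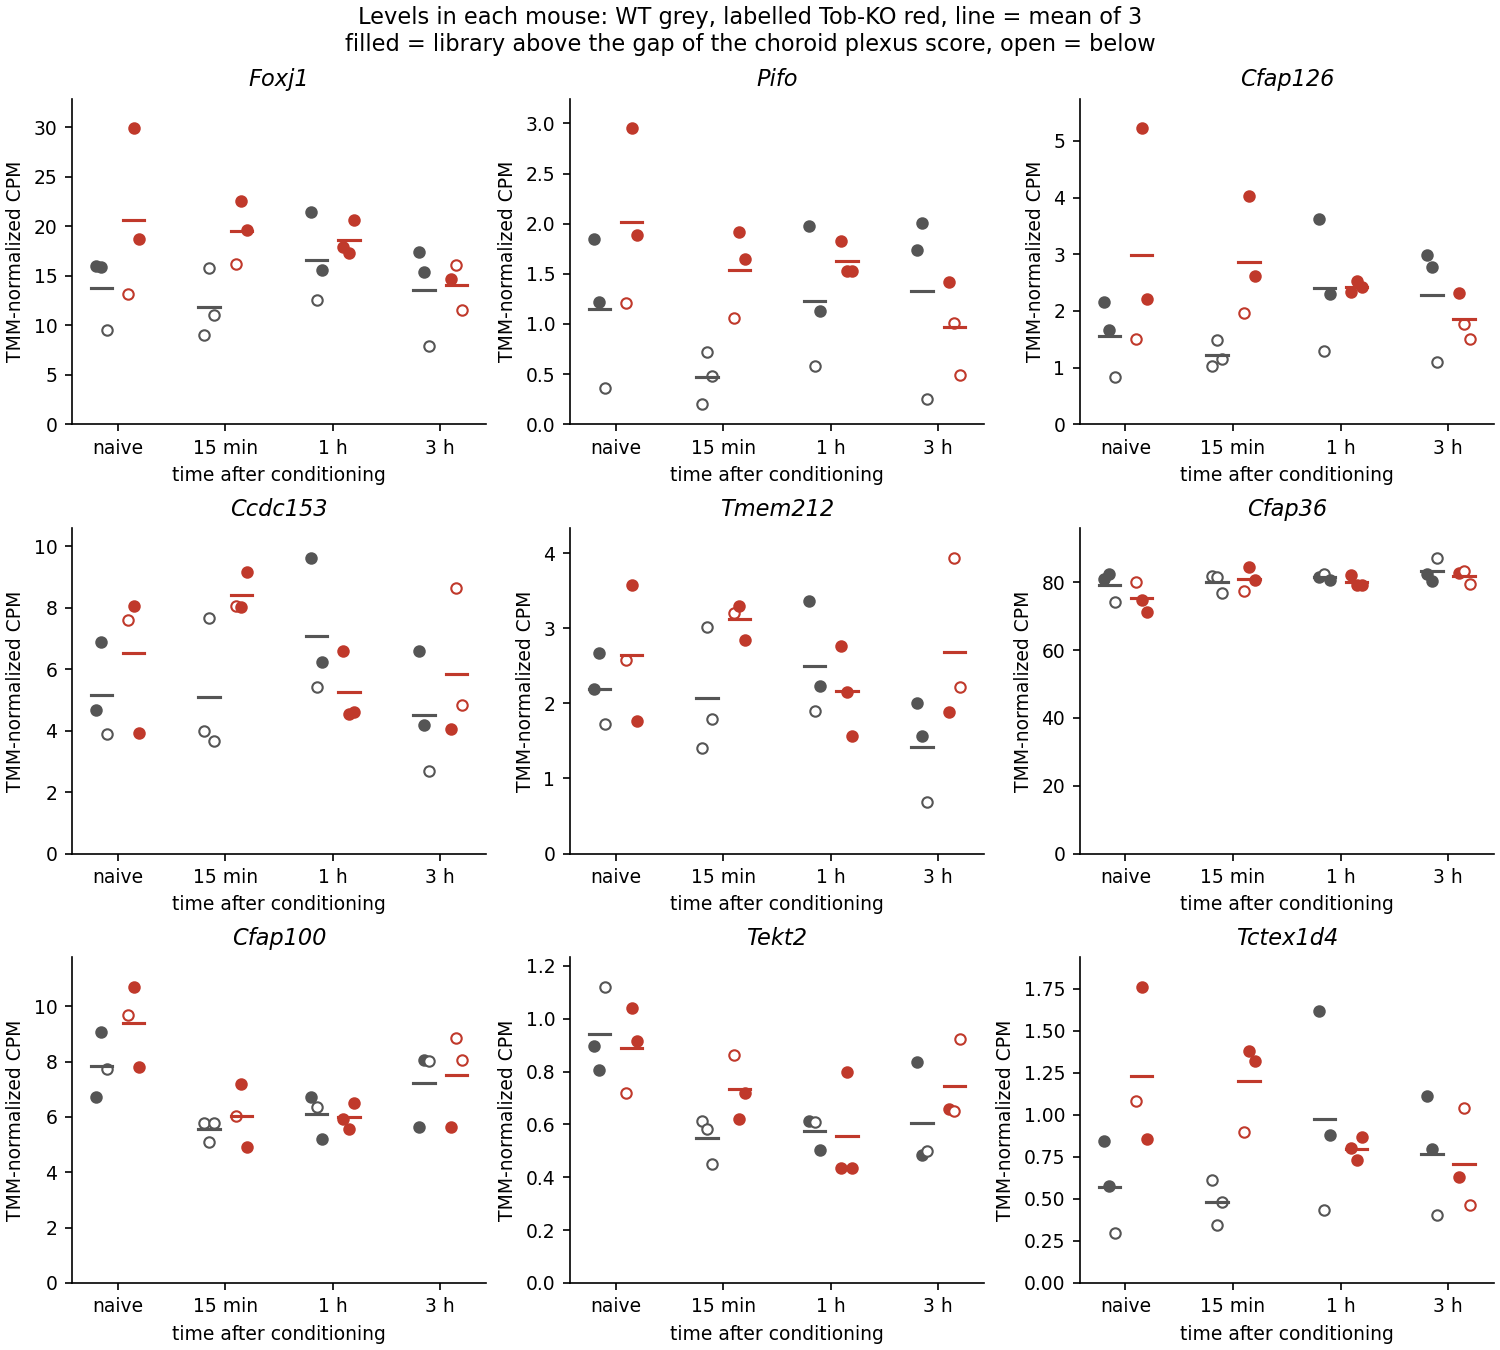
Level in CPM of Foxj1, Pifo, Cfap126, Ccdc153, Tmem212, Cfap36, Cfap100, Tekt2 and Tctex1d4 in each of the 24 mice by genotype and time, with filled points for libraries above the gap of the choroid plexus score, open points for those below it, and a bar for the mean of 3. All 3 WT points of 15 min are open and low for Pifo and Cfap126, Cfap36 is level across groups, and Cfap100 is lower at 15 min and 1 h.

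At the other times no gene was called between genotypes. In naive mice 49 of the 60 genes were higher on the side labelled Tob-KO, at a median log2 difference of 0.284, and 3 had an unadjusted p under 0.05, against 4.04% of all genes. The background of calls was 0.0218%, and 51.7% of all genes were higher. All 18 choroid plexus markers were higher too (median log2 difference 1.17, none called), as were 8 of 9 genes of hippocampal neurons (median 0.339, 5 with an unadjusted p under 0.05). Their part in the difference was not tested. The median ran from 0.0656 to 0.387 as single libraries were left out, and was lowest without Tob-KO naive replicate 2, the library that held the highest value of 27 genes. At 1 h, where 0.033% of all genes were called, 28 genes were higher and 32 lower, and 3 had an unadjusted p under 0.05, against 5.34% of all genes. All 18 choroid plexus markers (median 1.03) and all 9 genes of meninges and fibroblasts (median 0.428, 6 with an unadjusted p under 0.05) were higher, none of them called. The lowest difference was that of Dnah10 at -0.90 (adjusted p = 0.327, exact test), and Cfap46, a central pair gene, had -0.58 (adjusted p = 0.209, exact test). At 3 h, with 0.0274% of all genes called, 35 were higher and 25 lower, with a median log2 difference of 0.05 and an unadjusted p under 0.05 in 2 genes, against 3.97% of all genes. All 18 choroid plexus markers were lower, at a median of -1.07, and none was called. All 8 genes of striatum and septum (median 0.451) and all 7 of subventricular progenitors (median 0.216) were higher, with none called. The part of these markers in the differences was not tested. DESeq2 and the quasi-likelihood test also called none of the 60 at these 3 times.

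Over all times together, 52 of the 60 genes were higher on the side labelled Tob-KO, at a median log2 difference of 0.2035, and none passed the quasi-likelihood test at an adjusted p of 0.05. The background was 0.462%, and 10 of the 60 had an unadjusted p under 0.05, against 13.3% of all genes. All 18 choroid plexus markers were higher (median log2 difference 1.08), with none called. Foxj1 differed by 0.38 ± 0.15 (SE, adjusted p = 0.265) and Dnah1, an inner arm chain, by 0.25 (adjusted p = 0.0979). DESeq2 called Dnah1 alone of the 60. The median fell to 0.0795 with the choroid plexus score as a covariate and to 0.0292 with both scores. The axonemal score is made of genes of the same kind as the 60. Adjusting for it takes out a difference that they share, whatever its origin, so no conclusion is drawn from the value with both. Without covariates the median was 0.379 within the 10 libraries below the gap and 0.0117 within the 14 above it. The genotype comparisons at single times use separate mice, and all of them enter the comparison over all times.

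**Figure D5:**
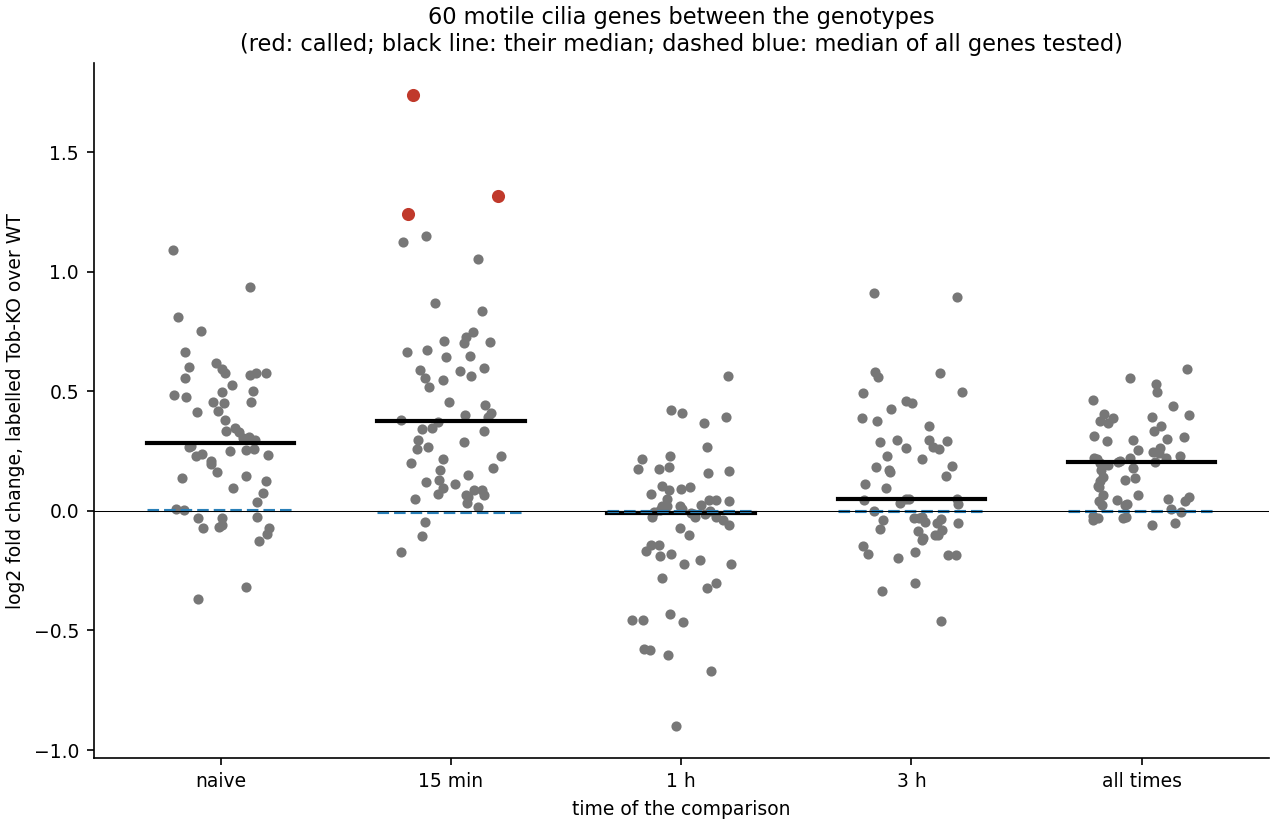
Log2 difference of the libraries labelled Tob-KO from WT for each of the 60 genes, by time from naive to 3 h and over all times, with a black line for their median, a dashed blue line for the median of all genes tested, and the 3 genes called at 15 min in red. The points lie mostly above 0 in naive mice and at 15 min, where the medians are 0.284 and 0.376, and around 0 at 1 h and 3 h.

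Whether the genotype difference at 15 min differed from that in naive mice was tested by the interaction over all 24 libraries. It was called for none of the 60 genes and for 0% of all genes, and no member had an unadjusted p under 0.05, against 4.82% of all genes. The largest was that of Pifo, 0.95 ± 0.86 (SE, adjusted p = 0.983, quasi-likelihood test). The calls at 15 min were thus not shown to be specific to that time.

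Conditioning itself was followed with both genotypes in 1 fit, in 3 comparisons that share the naive mice. At 15 min 1 of the 60 genes was called against naive, by the quasi-likelihood test with no limit on fold change, and it fell. The share over all genes was 4.7%. At 1 h 2 genes were called, both lower, against 6.15% of all genes, and at 3 h none was called, against 0%. The genes with an unadjusted p under 0.05 numbered 5, 4 and 5 at the 3 times, against 20.1%, 19.9% and 9.05% of all genes. At 3 h 50 of the 60 genes had the lower mean, with a median log2 difference of -0.179, compared with 45 at 15 min (median -0.095) and 31 at 1 h (median -0.017). Of the 18 choroid plexus markers all were lower at 15 min (median -1.30), 15 were higher at 1 h (median 0.102) and 17 were lower at 3 h (median -0.181), with none called. Of the 9 genes of meninges and fibroblasts 8 were higher at 15 min (median 0.338, Slc6a13 called) and 7 at 1 h (median 0.242, none called). Of the 9 genes of hippocampal neurons 6 were lower at 15 min (median -0.113, Dsp called) and 3 higher. The part of these markers in the differences of the cilia genes was not tested.

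The gene that fell at both early times was Cfap100 (ENSMUSG00000048794.14, chromosome 6, 90403479 to 90428797, reverse strand), whose product helps to dock inner dynein arms. Naive mice had 6.71, 9.06 and 7.73 CPM in WT and 9.7, 10.7 and 7.82 CPM in those labelled Tob-KO. At 15 min they had 5.78, 5.11 and 5.77 CPM and 6.03, 7.21 and 4.91 CPM, and at 1 h 6.72, 6.36 and 5.22 CPM and 5.93, 5.55 and 6.5 CPM. At 3 h the values were spread from 5.63 to 8.85 CPM. Against naive the log2 difference was -0.57 ± 0.12 (SE, adjusted p = 0.00878, quasi-likelihood test) at 15 min and -0.50 ± 0.12 (SE, adjusted p = 0.0135) at 1 h. Its slope on the choroid plexus score was not called (-0.02 ± 0.02, SE). Cfap100 overlaps Zxdc on the other strand, whose reads cannot be told apart from its own where the counting did not use strand.

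Tekt2 (ENSMUSG00000028845.15, chromosome 4, 126322121 to 126325688, reverse strand), a tektin of the doublet wall, was the other gene that fell at 1 h. It rested on 13 to 34 counts per library and overlaps Gm12945 on the other strand. Naive mice had 0.898, 0.804 and 1.12 CPM in WT and 0.719, 1.04 and 0.915 CPM in those labelled Tob-KO, and at 1 h they had 0.611, 0.608 and 0.503 CPM and 0.433, 0.798 and 0.433 CPM. The log2 difference was -0.69 ± 0.19 (SE, adjusted p = 0.0288, quasi-likelihood test) at 1 h and -0.52 (adjusted p = 0.106) at 15 min. The call at 1 h was lost without any 1 of WT naive replicate 3, WT 1 h replicate 3, Tob-KO naive replicate 2, Tob-KO 1 h replicate 1 and Tob-KO 1 h replicate 3, with adjusted p of 0.0562 to 0.0745. Tekt4 had the lowest difference at 15 min, -0.72 (adjusted p = 0.0679). At 15 min the count rose from 1 to 5 without Tob-KO 15 min replicate 2, and the share over all genes in that refit is not given here.

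Other genes of the pathway were read from lists that share no gene with the 60. Of 38 other axonemal genes 13 had a called choroid plexus slope, Spag16, Dnali1 and Spef2 among them, and none was called between genotypes. Against naive Ccdc39 alone was called, lower at 15 min. At 15 min 37 of them were higher on the side labelled Tob-KO, at a median log2 difference of 0.366. Of 11 regulators of multiciliated cells that were tested, Gmnc, Rfx2 and Trp73 rose with the choroid plexus score, and none was called at 15 min between genotypes. Of 23 intraflagellar transport genes, which build every cilium, Ift74 alone rose with the score, against the 4.5% of all genes. Their median genotype difference at 15 min was 0.0747. Against naive, Dync2h1 and Ift172 were called lower at 15 min, where 4.7% of all genes were called. At 1 h Ift122 and Ift20 were called lower and Ift57 higher, where 6.15% of all genes were called.

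Of the ependymal markers outside the axoneme, Mia had 0 to 3 counts and was at 0 in 14 libraries, so 4 were tested. None of the 4 was called between genotypes or on the choroid plexus score. In the fit with 2 scores Rarres2 had a choroid plexus slope of -0.12 (adjusted p = 0.0239, quasi-likelihood test) and an axonemal slope of 1.71 (adjusted p = 0.000168). Of the other tissue markers, Lum alone of 9 genes of meninges and fibroblasts rose with the choroid plexus score, and none of 9 genes of hippocampal neurons, 8 of striatum and septum and 7 of subventricular progenitors did. At 15 min between genotypes none of the genes of these 4 lists was called.

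Foxj1 was set against 4 single genes outside the 60 in 11 relations of log2 CPM, with permutation p adjusted over the 11. With Rarres2 over 24 libraries Pearson's r was 0.668 (permutation p = 0.00032, adjusted 0.00352) and Spearman's rho 0.597 (permutation p = 0.00249, adjusted 0.0274). Leaving out the 2 libraries farthest from the median of Rarres2 gave an r of 0.484. It was 0.806 within WT (permutation p = 0.00172, adjusted 0.00946), where rho was 0.713 (permutation p = 0.0116, adjusted 0.064), and 0.388 within Tob-KO (permutation p = 0.216, adjusted 0.395, rho 0.406). Within WT the relation thus passed the adjustment by Pearson's r and not by Spearman's rho, and the difference between genotypes was not tested. With Ttr, the transthyretin gene of the choroid plexus, r was 0.512 in the 10 libraries below the gap (permutation p = 0.12, rho 0.588) and 0.598 in the 14 above it (permutation p = 0.0272, adjusted 0.0998, rho 0.574). With the transport gene Ift88 r was 0.0331 (rho 0.0904) and with Prox1, a granule neuron gene, 0.297 (permutation p = 0.158, rho 0.349), neither of which passed.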

How the data were processed

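The authors purified poly(A) RNA, made directional libraries with 8 PCR cycles and sequenced 150-base paired-end reads. Per the labels and the submitters' processing notes, reads were aligned to GRCm38 (STAR 2.6.1d) and counted with HTSeq 0.9.0. The deposited table holds raw counts without normalization. Its annotation release and strand setting are not given in the sources used here, and counting used no molecular identifiers.

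From the counts, edgeR 4.0.16 (R 4.3.3) gave TMM-normalized CPM, the exact test of Tob-KO against WT with the study's limits (0.2 CPM in 2 of 6 libraries, Benjamini-Hochberg false discovery rate 0.05, p 0.05, fold change 2), and quasi-likelihood tests over 24 libraries. Standard errors come from the quasi-likelihood fit. Log2 levels used a prior count of 2. Genes were matched to GENCODE on GRCm38, and all 60 matched 1 gene. DESeq2 1.42.0 was an alternative, and figures used matplotlib 3.10.9. Relations used 100000 two-sided permutations in SciPy 1.17.1. Fits were tested on simulated data.

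Genotype, time and replicate came from the sample labels. Members and lists were chosen with earlier results of these data known. Genes named were the 5 named singly, the 4 highest per kilobase of each family, the 5 most and least variable, and those called. The other members named (Cfap161, Cfap43, Cfap44, Cfap45, Cfap46, Cfap52, Dnah11, Dnah14, Dnah17, Dnah7a, Dnah7b, Dnah7c and Dnah8) were picked with their values in view. The 2 sets divided at the widest gap of the choroid plexus score were also defined from the data. Libraries within a group differed by 3.68 to 22.8 in chi-square per degree of freedom over 24 pairs, so none was a duplicate within its group. Pairs from different groups were not compared in this way.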

Additional observations from a re-analysis of the deposited data

How the results depend on the processing

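Depth limited Tekt2, Dnah17 and other genes of low counts, and 3 mice per group limited every call at a single time. Exact-test calls at 15 min numbered 3, against 0 with the quasi-likelihood test, 0 with dispersion from all 24 libraries, 1 with DESeq2 (Cfap126), and 0 to 8 as each library was left out. At 1 h the count of 0 became 0 to 1 as libraries were left out (Cfap53 or Dnah10). Over all times DESeq2 called 1 gene against 0. Against naive, DESeq2 called 2 genes at 15 min (Cfap100 and Tekt4) instead of 1, with 1 to 5 as libraries were left out. At 1 h 1 gene was called instead of 2 without the filter on low counts, 3 with the choroid plexus score as a covariate, and 1 to 2 as libraries were left out. The 21 choroid plexus slopes became 0 within the 10 libraries below the gap and 8 within the 14 above it, where fewer samples entered each fit, and 20 to 23 as libraries were left out. Beside the axonemal score the 8 calls became 2 to 9 as libraries were left out. RLE normalization in place of TMM kept the counts of the comparisons between groups and the 21 slopes over 24 libraries. It was not run within the 2 sets or in the fit with 2 scores. The shares over all genes under the alternatives of this section are not given here. The labels give the same replicate numbers in each group, with no statement that they mark a shared source. Of 30 pairs of groups and numbers 13 had a correlation of deviations over 0.1. All 3 did so in 1 of the 10 pairs of groups, Tob-KO naive and 15 min (0.578, 0.618 and 0.183), and in none of the pairs of WT with Tob-KO, and 4 of 24 libraries correlated best with their own number. With the replicate block, fitted by the quasi-likelihood test, 0 genes were called at 15 min between genotypes. That test called 0 without the block too. The median difference over all times was 0.2107 with the block against 0.2035. Of 399 alternative values of single genes 362 kept their direction and their status as called or not called. A further 37 kept the direction without the call, and 0 turned direction. The 362 include 12 values of Foxj1 between genotypes at 15 min, which was not called in the main test either. The 37 include the lost calls between genotypes at 15 min, 8 of 12 for Pifo, 8 of 12 for Tctex1d4 and 7 of 12 for Cfap126. Except where given here, the causes of these changes were not tested.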
